A study of Danio rerio with 3 samples.

Results

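Neural progenitors of the zebrafish hindbrain were compared between 16 and 24 hours post fertilisation (hpf). They were selected on measured values, as the cells with at least 8 unique molecular identifiers (UMIs) of *sox3* per 10000 UMIs, less than 4 of *elavl3* and *elavl4* together, and 0 UMIs of *sox10*, *foxd3* and *six1b*. This rule took 1371 of 2929 cells at 16 hpf, 46.8% (44.99 to 48.6), and 927 of 2568 cells at 24 hpf, 36.1% (34.2 to 38.0), so that 2298 of the 5497 cells of these stages were progenitors, in a series of 9026 cells. The gene *sox3* encodes a SoxB1 transcription factor of neural progenitors, *elavl3* and *elavl4* encode RNA-binding proteins of differentiating neurons, *sox10* and *foxd3* mark neural crest, and *six1b* marks cranial placodes.

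Each stage was 1 library, prepared from about 40 pooled hindbrain dissections of wild-type LondonAB embryos, adjoining tissue included, and sequenced after droplet capture (10x Chromium, 3′ chemistry, version 2). Embryos of 16 hpf were grown at 25 °C and those of 24 hpf at 28.5 °C, and the embryos of a further library, at 44 hpf, again at 25 °C. Stage, library and growth temperature therefore cannot be told apart, and with 1 library for each stage no test between stages was made. Levels are UMIs of a gene summed over the progenitors of a library per 1000000 UMIs of all genes in those cells (CPM). The values in parentheses are 95% intervals that cover counting error only. Those of shares of cells are Clopper-Pearson intervals, and those of ratios are exact binomial intervals that take the summed UMIs of both stages as given.

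In the hindbrain neuroepithelium, dividing progenitors line the ventricle and give rise first to neurons and later to glia. SoxB1 factors and Notch signalling, which acts through Her and Hes repressors, keep cells as progenitors, whereas proneural factors of the basic helix-loop-helix family start neuronal differentiation. The tissue is at the same time divided into segments, the rhombomeres, and into domains along its dorsoventral axis, each with its own transcription factors.

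Summed over their cells, progenitors had 13817391 UMIs at 16 hpf and 8211630 at 24 hpf, with a median of 10123 and 7798 UMIs and of 2288 and 1817 genes per cell. A gene without a UMI could still have a level of up to 0.217 CPM at 16 hpf and 0.365 CPM at 24 hpf, the level of 3 UMIs. The libraries of these stages shared 8 cell barcodes, 0.273% of those at 16 hpf. At 16 hpf, 1744 cells passed the threshold on *sox3*, of which 102 were left out for *elavl3* and *elavl4* and 271 for neural crest or placode genes. At 24 hpf these numbers were 1387, 369 and 91. The median progenitor had 17.4 UMIs of *sox3* per 10000 at 16 hpf and 17.1 at 24 hpf. Just inside the threshold, with 8 to 10, lay 107 and 99 cells, and just outside, with 6 to 8, lay 81 and 114 cells that met the rest of the rule. At least 1 UMI of *elavl3* or *elavl4* was found in 372 of the 1371 progenitors at 16 hpf and in 447 of the 927 at 24 hpf. Of these, 74 and 158 had 2 to 4 UMIs of both genes together per 10000, just inside that threshold.

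Genes of progenitors that the rule did not use were present in these cells. The factor *sox19a*, a further SoxB1 gene, had 540.5 CPM at 16 hpf and 344 CPM at 24 hpf in progenitors, against 35.2 and 11.3 CPM in the 737 and 582 cells with less than 2 UMIs of *sox3* and less than 4 of *elavl3* and *elavl4* per 10000, here called sox3-low cells. Musashi, *msi1*, an RNA-binding protein of neural stem cells, had 240.4 and 266 CPM against 31.2 and 22.9, and N-cadherin, *cdh2*, 219 and 175 CPM against 59.9 and 58.5. The levels of *sox2*, *notch3*, *her4.1* and *pcna* were also higher in progenitors than in sox3-low cells at both stages.

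Markers of most other tissues were low in progenitors. The 18 measured genes of epidermis and periderm summed to 629 CPM at 16 hpf and 707 CPM at 24 hpf, where sox3-low cells had 6989.9 and 27005 CPM, and the 12 genes of blood to 6.08 and 24.5 CPM, where sox3-low cells had 70.9 and 2160.1. Head mesenchyme, mesoderm and muscle genes had 35.03 and 45.8 CPM, and those of endothelium 14.7 and 12.2. Genes of notochord and endoderm had 134 and 129 CPM, and those of spinal cord and tail bud 23.2 and 22.2. For neural crest and placodes, the rule left out progenitors with a UMI of *sox10*, *foxd3* or *six1b*. The sox3-low cells were not filtered on these genes. The sums of crest and placode genes in progenitors, and their distance from sox3-low cells, are therefore set in part by the rule. Otic and placodal genes summed to 118 and 63.4 CPM. The list of neural crest genes had 331 and 308 CPM, where sox3-low cells had 1724 and 909, mostly from *nr2f5*, with 186 and 93.5 CPM, and *pax3a*, with 109.8 and 178 CPM, which neural progenitors express as well. Midbrain and forebrain genes were higher in progenitors than in sox3-low cells, with 119 and 178 CPM against 24.7 and 40.95. Most of this came from *pax6a*, which hindbrain progenitors express as well, with 113 and 174 CPM, and of 21 measured genes 10 had no UMI at 16 hpf and 12 none at 24 hpf. The part of RNA from other cells in the differences below was not tested.

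Of 4208 genes with at least 20 CPM at the higher stage, 524 were at least 1.5-fold higher at 24 hpf, 12.5%, and 1016 at least 1.5-fold lower, 24.1%. With a fold of 2 these numbers were 271 and 450. The median ratio of 24 over 16 hpf was 0.891. With the libraries scaled to that median, which raises every ratio by 0.166 on the log2 scale, 742 genes were higher and 694 lower, and 51.7% of the called genes were higher instead of 34.0%. All ratios below are on the scale of total UMIs. Lower calls of named genes that are lost on the scale of the median gene are given beside them, and counts of a list are to be read against the background of 12.5% and 24.1%.

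**Figure D1:**
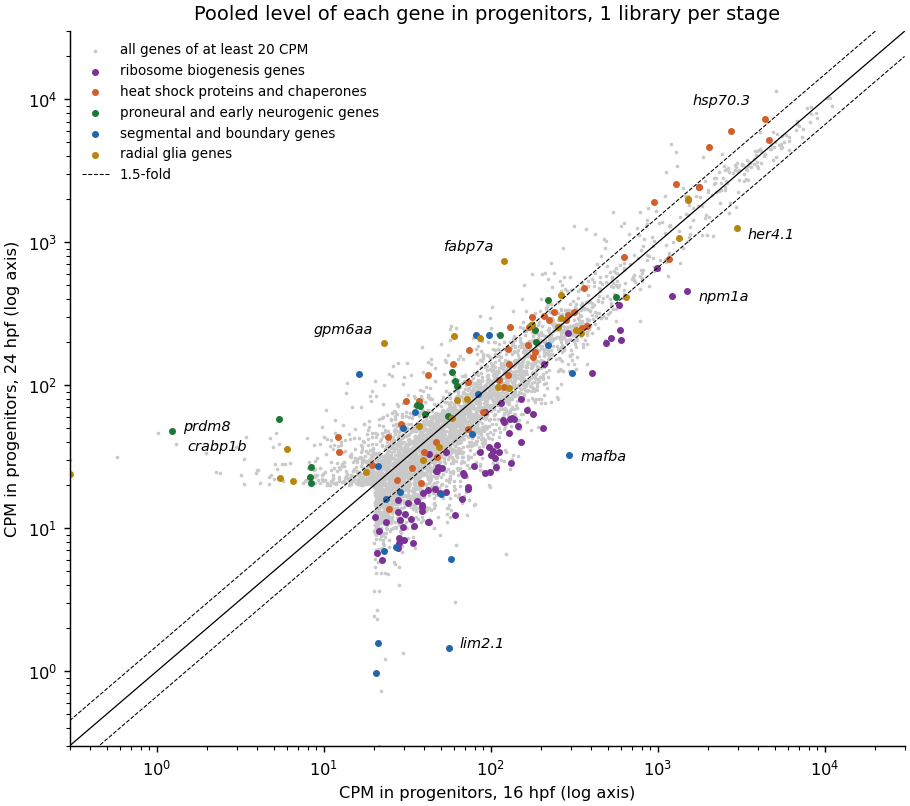
Pooled level of each gene in progenitors at 16 hpf (x axis) and 24 hpf (y axis), in CPM on log axes, with 5 lists of genes in colour and dashed lines at 1.5-fold. Most ribosome biogenesis genes lie below the lower dashed line, while *fabp7a*, *gpm6aa*, *crabp1b* and *prdm8* lie far above the upper one and *mafba* and *lim2.1* far below; the gene at the left edge had no UMI at 16 hpf.

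Among genes with at least 100 CPM, *gpm6aa*, which encodes a membrane glycoprotein of the nervous system, had the highest ratio. Its level was 22.9 CPM at 16 hpf and 198 CPM at 24 hpf, 8.61-fold higher (7.63 to 9.74). Next were *ddit4*, an inhibitor of mTORC1 signalling, with 13.8 and 104 CPM, 7.52-fold higher (6.42 to 8.85), and the ephrin *efna1b* with 16.1 and 120.2 CPM, 7.45-fold higher (6.43 to 8.65). The brain fatty acid-binding protein gene *fabp7a*, a marker of radial glia, had 119 and 736 CPM, 6.17-fold higher (5.84 to 6.51). The remaining genes of the leading 15 ranged from 4.13 to 5.30-fold. They included the mitochondrial channel gene *vdac3* (25.8 and 137 CPM), *dnmbp*, a scaffold protein that binds dynamin (20.1 and 107 CPM), cytosolic malate dehydrogenase *mdh1aa* (27.9 and 143 CPM), the actin-binding thymosin gene *tmsb* (24.4 and 119 CPM), *pdcd4b*, an inhibitor of translation (57.7 and 261 CPM), and the secreted lipoprotein lipase inhibitor *angptl4* (57.2 and 246 CPM).

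In sox3-low cells of the same libraries, *gpm6aa*, *efna1b* and *vdac3* were also higher at the later stage. There *gpm6aa* had 1.67 and 8.11 CPM, *efna1b* 39.6 and 70.4 CPM, and *vdac3* 41.1 and 166 CPM. The ratio of *vdac3* was 4.04 in these cells and 5.30 in progenitors. The rise of *gpm6aa* was thus not confined to progenitors, although its level in sox3-low cells was low.

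At the other end, the uncharacterised gene *si:ch211-152c2.3* had 123 CPM at 16 hpf and 6.58 CPM at 24 hpf, 18.7-fold lower (14.2 to 24.9), while in sox3-low cells its level was 86.2 and then 156 CPM. The segmental transcription factor gene *mafba* had 295 and 32.4 CPM, 9.09-fold lower (8.03 to 10.3), and *cyp26c1*, which encodes a retinoic acid-degrading enzyme, 130.5 and 25.8 CPM, 5.05-fold lower (4.38 to 5.86). In sox3-low cells *cyp26c1* was likewise higher at 24 hpf, with 36.9 and 54.2 CPM. Nucleolar genes followed, with *gnl3*, or nucleostemin, at 132 and 28.6 CPM, 4.60-fold lower (4.01 to 5.29), *surf6* at 205 and 49.9 CPM, and *rrs1* at 108 and 26.8 CPM. The ribosome assembly factor genes *rbm19*, *mrto4* and *grwd1*, which are in none of the lists, were 4.54, 4.39 and 4.22-fold lower. The leading 15 lower genes also held the mitochondrial import receptor *tomm20a* (136 and 32.3 CPM), the chemokine *cxcl12a* (108 and 26.1 CPM), the ligand *wnt11r* (119 and 29.6 CPM) and *txnipa*, a thioredoxin-interacting protein (104 and 25.9 CPM).

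Ribosome biogenesis genes, whose products process ribosomal RNA and assemble the subunits of the ribosome in the nucleolus, were lower at 24 hpf. Of 79 such genes with at least 20 CPM, from 87 measured, 73 were called lower and 0 higher, against 24.1% and 12.5% of all genes, with a median ratio of 0.363. The nucleolar chaperone nucleophosmin, *npm1a*, had 1501 CPM at 16 hpf and 460.1 CPM at 24 hpf, 3.26-fold lower (3.15 to 3.38). Nucleolin, *ncl*, had 1207 and 424 CPM, 2.85-fold lower (2.75 to 2.96), and dyskerin, *dkc1*, which modifies ribosomal RNA, 405 and 122 CPM, 3.31-fold lower (3.09 to 3.54). Fibrillarin, *fbl*, a methyltransferase for ribosomal RNA, had 520.2 and 215 CPM. The genes of the box C/D ribonucleoprotein *nop58* and *nop56* had 593 and 244 CPM and 582 and 367 CPM, 2.43-fold (2.31 to 2.55) and 1.59-fold (1.52 to 1.66) lower, the call of *nop56* being lost on the scale of the median gene. The genes *noc2l*, *wdr75* and *imp3*, whose products act in the assembly or processing of ribosomal precursors, were 4.98, 4.34 and 4.16-fold lower. The 6 genes of the list between the thresholds were *ranbp1*, *gar1*, *bysl*, *noc4l*, *nsa2* and *hspa8*. Among them, *hspa8*, which encodes a general heat shock cognate chaperone, was above 1, with 1766 and 2438 CPM, and past 1.5-fold on the scale of the median gene.

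The difference was present in most cells. The summed UMIs of the list had a median of 138 per 10000 UMIs of a cell at 16 hpf, with 102 at the lowest and 182 at the highest decile, and of 69.3 at 24 hpf, with 45.3 and 109.9. Of the progenitors of 24 hpf, 86.3% were below the lowest decile of 16 hpf, and 1.83% were above its median. These sums include *hspa8*, the most abundant gene of the list, which is also on the list of chaperones. Shares of cells were compared after 3000 UMIs had been drawn from each cell, and 51 cells of 16 hpf with fewer UMIs could not be used. After this step *dkc1* was found in 67.7% (65.1 to 70.17) and 24.4% (21.6 to 27.3) of progenitors at the successive stages and *npm1a* in 97.8% (96.9 to 98.5) and 62.4% (59.1 to 65.5). Without this step the shares were 93.0% and 48.0% for *dkc1* and 99.6% and 83.3% for *npm1a*. In sox3-low cells *dkc1* was found in 70.5% and 41.4% and *npm1a* in 96.1% and 82.3% after the same step.

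Other cells of the libraries differed in the same direction. In sox3-low cells 67 of these 79 genes were at least 1.5-fold lower, with a median ratio of 0.470, and in the 65 and 307 cells with at least 20 UMIs of *elavl3* and *elavl4* per 10000, called elavl-high cells, the median was 0.343. At 44 hpf 632 cells met the rule, with a median of 3005.5 UMIs per cell and 2280989 UMIs in total. At this lower depth the rule rests on fewer UMIs per cell, so these cells are not a like selection to those of the earlier stages. In them *npm1a* had 90.3 CPM, *dkc1* 24.6 CPM and *gnl3* 13.6 CPM. The genes of the cytosolic ribosomal proteins did not share the difference, with 0 of 77 higher, 1 lower and a median ratio of 1.02, although 5 were higher and none lower when libraries were scaled to the median gene. Their share of all UMIs was 30.5% at 16 hpf and 30.3% at 24 hpf. The lower one was *rpl37*, a call lost on that scale, with 21.06 and 12.5 CPM, while a second entry of that name, *rpl37.1*, had 11050.0 and 9007 CPM, and how reads were shared between them is uncertain.

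**Figure D2:**
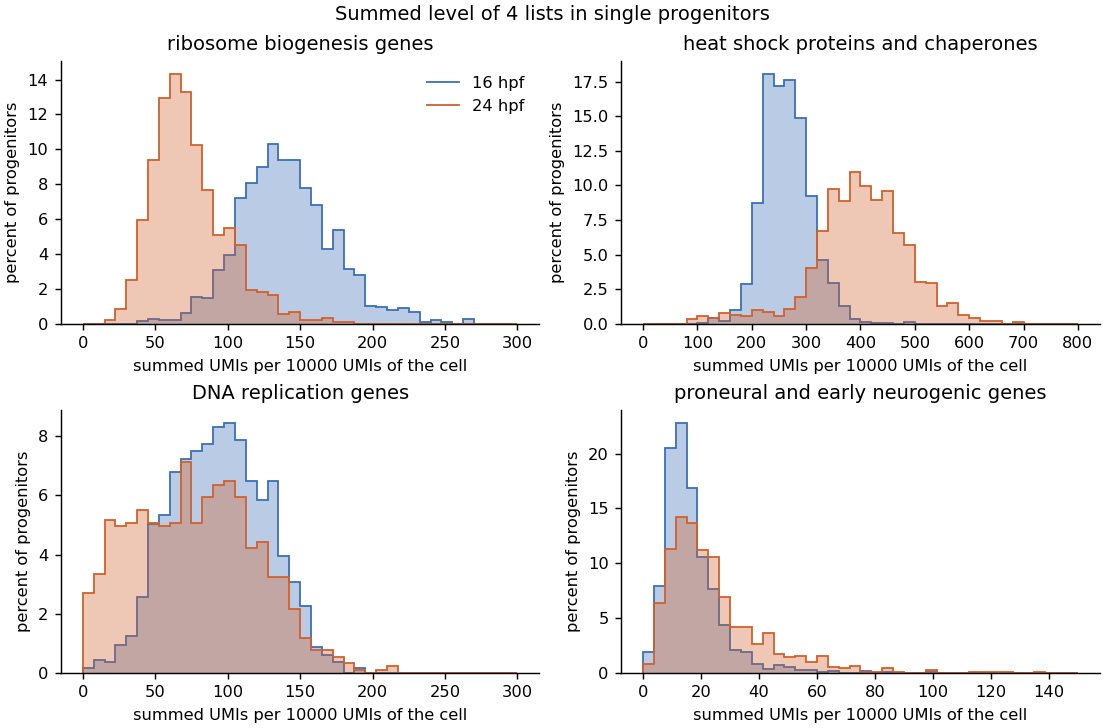
Summed UMIs of 4 lists of genes per 10000 UMIs of a cell (x axis) in the 1371 progenitors of 16 hpf and the 927 of 24 hpf, as percent of the cells of a stage (y axis); cells past the end of an axis are in its last bin. Ribosome biogenesis genes had medians of 138 and 69.3 and chaperones of 262 and 403, whereas the other lists overlapped more. The gene *hspa8* is counted both with the ribosome biogenesis genes and with the chaperones.

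Of the factors that start or lengthen protein chains, 6 of 57 were higher and 18 lower, with a median ratio of 0.890, and 8 and 11 on the scale of the median gene. The elongation factor genes *eef1b2*, with 539 and 1623 CPM, 3.01-fold higher (2.93 to 3.10), and *eef1g*, with 625 and 1365 CPM, were higher. Among the inhibitors of the cap-binding protein eIF4E, *eif4ebp3l* was 3.75-fold lower (3.38 to 4.16), from 193 to 51.4 CPM, and *eif4ebp1* 2.09-fold lower, whereas *eif4ebp2* was 2.09-fold higher (1.94 to 2.25). Of the Myc family, which regulates growth and ribosome production, *mycn* had 559 and 417 CPM, a ratio of 0.746 (0.717 to 0.777), *mych* was 1.52-fold lower (1.40 to 1.66) and *myca* 2.11-fold higher (1.82 to 2.45). Of 9 genes of the family and its partners 3 were higher, and the 2 lower calls became 0 on the scale of the median gene.

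Chaperones and heat shock proteins, which fold other proteins and bind unfolded ones, were higher as a group. Of 50 genes, 17 were higher and 4 lower, with a median ratio of 1.29 and a summed level of 26188 and 39625 CPM. According to the paper, tissue of each stage was dissociated with enzymes at a temperature above both growth temperatures. The part of this step in the levels was not tested. Heat-inducible genes had high levels at both stages. The most abundant was *hsp70.3*, with 4356 and 7282 CPM, 1.67-fold higher (1.65 to 1.69), followed by *hsp90aa1.2*, with 2757 and 6044 CPM, 2.19-fold higher (2.16 to 2.22), and *hsp70.2*, with 2032 and 4634 CPM, 2.28-fold higher (2.25 to 2.32). Because *hsp70.2*, *hsp70.3* and *hsp70l* are near-identical copies, the division of reads among them is uncertain. The co-chaperone *dnajb1b* had 1288 and 2571 CPM, 1.996-fold higher (1.96 to 2.04). The constitutive *hsp90ab1* differed less, with 4613 and 5214 CPM and a ratio of 1.13 (1.12 to 1.14).

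Chaperones of the endoplasmic reticulum were also higher, with *hsp90b1* at 42.0 and 118 CPM, 2.82-fold higher (2.54 to 3.13), *calr*, or calreticulin, at 59.1 and 141 CPM, and the disulphide isomerases *pdia3* and *pdia4* at 2.39 and 3.55-fold, while *pdia6* was at 72.5 and 49.2 CPM, a ratio of 0.678. The small heat shock protein gene *hspb1* was 1.54-fold lower (1.49 to 1.58), with 1171 and 761 CPM, and *dnajb1a*, *dnajc2* and *dnaja1* were 1.84, 1.79 and 1.504-fold lower. The calls of *hspb1* and *dnaja1* were lost on the scale of the median gene, which left 2 lower genes. In single progenitors the summed list had a median of 262 UMIs per 10000 at 16 hpf and 403 at 24 hpf, and 94.2% of the cells of 24 hpf were above the median of 16 hpf.

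In sox3-low cells the median ratio of the same genes was 1.08, with 11 higher and 7 lower. In elavl-high cells it was 1.33, with 14 higher and 7 lower. The 24 hpf embryos were those grown at 28.5 °C. In the cells of 44 hpf, from embryos grown at 25 °C, the list summed to 50923 CPM, and *hsp70l*, which had 950.5 and 1913 CPM at the earlier stages, had 7988 CPM. Of 9 cold-inducible RNA-binding genes, 1 was higher, *srsf5b* with 18.7 and 51.4 CPM, and 2 were lower, which at 22.2% is near the background of 24.1%. The lower ones were *srsf5a* with 879 and 496 CPM and *hnrnpa0b* with 2945 and 1768 CPM, and of these *srsf5a* remained lower on the scale of the median gene. The genes *cirbpa* and *cirbpb*, which encode cold-inducible RNA-binding proteins, had 3518 and 3616 CPM and 2383 and 2335 CPM. Immediate early genes, which respond to stress and dissociation, were divided, 4 higher and 6 lower of 19. The most abundant, *fosab* and *atf3*, had 1553 and 1280.0 CPM and 860.1 and 1335 CPM.

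**Figure D3:**
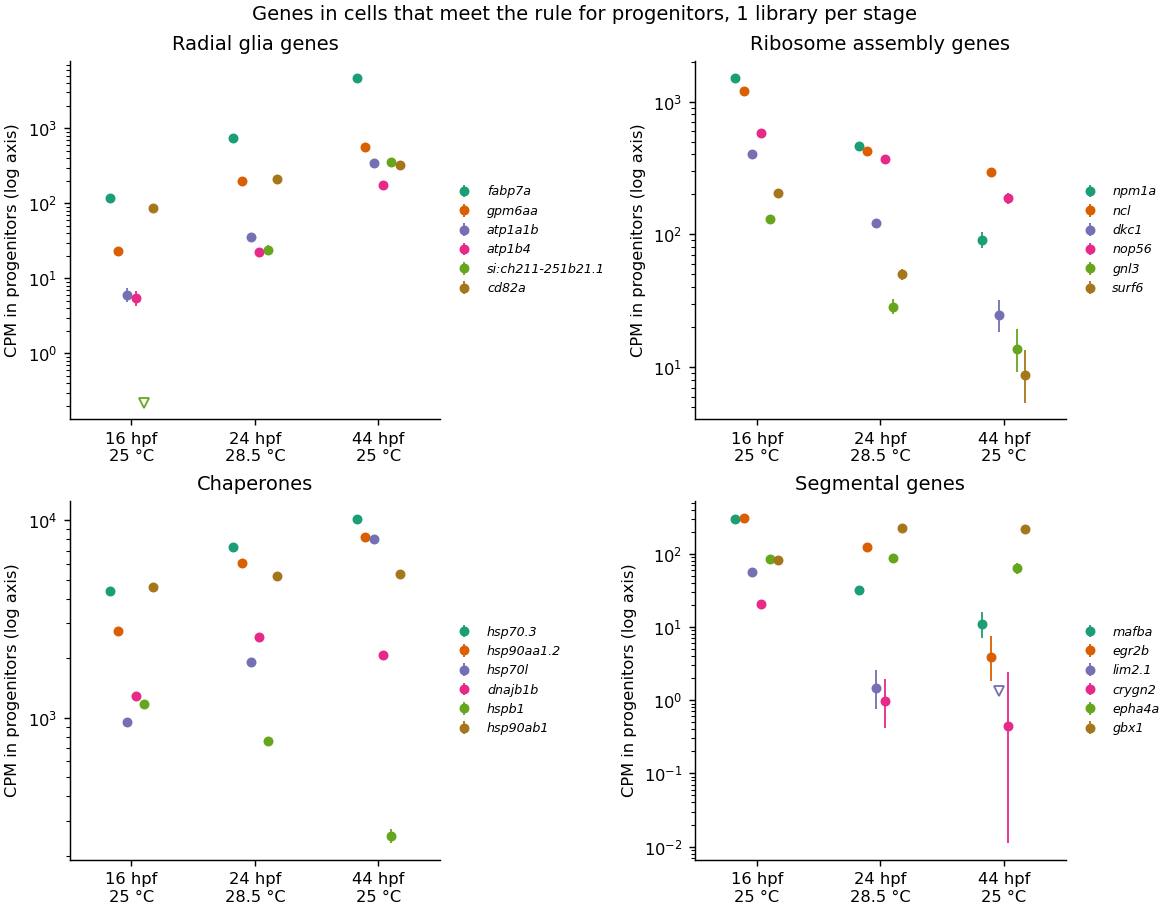
Level in CPM (y axis, log scale) of genes of 4 kinds in cells that met the rule at 16, 24 and 44 hpf (x axis, with growth temperature), 1 library for each stage. Bars are 95% Poisson intervals of the counts, and open triangles stand for no UMI, at the level of 3 UMIs; *npm1a* had 1501, 460.1 and 90.3 CPM and *fabp7a* 119, 736 and 4679 CPM.

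Genes of the cell cycle differed less than these groups. Of 59 genes of DNA replication, 17 were lower and 0 higher, 28.8% against the background of 24.1%, with a median ratio of 0.854, below that of all genes, 0.891. On the scale of the median gene 10 were lower. The clamp gene *pcna* had 1619 and 1429 CPM, a ratio of 0.883 (0.863 to 0.903), and *mcm7*, of the replicative helicase, 253 and 287 CPM. Lower were *chaf1b*, of the chromatin assembly factor, 2.51-fold lower (2.12 to 2.997), cyclin E, *ccne1*, 2.28-fold lower (1.88 to 2.78), and *rfc2*, of the clamp loader, 2.03-fold lower (1.85 to 2.24). The list summed to a median of 94.4 UMIs per 10000 in single cells at 16 hpf and 76.6 at 24 hpf, where 31.3% of the cells of 24 hpf lay below the lowest decile of 16 hpf.

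Of 66 mitotic genes 4 were higher and 8 lower, with a median ratio of 0.9801. The proliferation markers *mki67*, with 262 and 311 CPM, *nusap1*, with 196 and 226 CPM, and *cdca8*, with 69.3 and 69.8 CPM, stayed within 1.5-fold. Cyclin-dependent kinase 1, *cdk1*, had 219.5 and 114 CPM, 1.92-fold lower (1.79 to 2.07), and *ccnb2*, *fbxo5* and *mis12* were 2.397, 2.405 and 2.39-fold lower. The higher members were *cdc25b* and genes of microtubules, *stmn1a*, with 373 and 1235 CPM, 3.31-fold higher (3.20 to 3.42), *tubb4b* and *tuba8l*. The count of lower members was not stable. In progenitors without a UMI of 10 genes of neurogenesis, an alternative chosen after seeing the data, 26 of 66 were lower. After 3000 UMIs had been drawn, *mki67* was found in 48.6% (45.9 to 51.4) and 48.2% (44.96 to 51.5) of progenitors, and before it in 78.7% and 68.7%. Its shares in sox3-low cells were 38.7% and 32.8%.

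Among the regulators of the G1 phase, D-type cyclins drive entry into the cycle. Cyclin D1, *ccnd1*, had 1027 and 756 CPM, a ratio of 0.736 (0.714 to 0.758), and *ccnd2a* 145 and 49.8 CPM, 2.91-fold lower (2.62 to 3.25). The inhibitors of cyclin-dependent kinases were divided. The gene *cdkn1a*, known as p21, had 58.0 and 13.4 CPM, 4.33-fold lower (3.55 to 5.34). The paralogs encoding p57, *cdkn1ca* and *cdkn1cb*, differed in direction, with 175 and 277 CPM, 1.59-fold higher (1.496 to 1.68), and 118 and 60.4 CPM, 1.96-fold lower (1.77 to 2.17). The p27 gene *cdkn1bb* was 1.68-fold higher (1.52 to 1.87), and the antiproliferative *btg1* and the cyclin G gene *ccng2* were 1.75 and 2.32-fold higher. Over the list of 19 genes, 6 were higher and 4 lower.

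SoxB genes differed in direction. Without *sox3*, whose level the rule sets in part, 2 of 4 were higher and 1 was lower. Among them, *sox2* had 82.7 and 125 CPM, 1.51-fold higher (1.38 to 1.64), next to the threshold. It was below the threshold, at 1.32, with 3000 UMIs drawn from each cell and the rule applied after drawing. The gene *sox21a*, which encodes a SoxB2 repressor, had 89.02 and 204 CPM, 2.29-fold higher (2.12 to 2.46). In contrast, *sox19a* was 1.57-fold lower (1.504 to 1.64), a call that was lost on the scale of the median gene. Other transcription factors of progenitors were more often higher than lower, 14 and 4 of 29. They included the Hox cofactor *pbx4*, with 240.2 and 609 CPM, 2.53-fold higher (2.43 to 2.65), the COUP-type nuclear receptors *nr2f1a*, with 86.3 and 307 CPM, 3.55-fold higher (3.32 to 3.81), and *nr2f6b*, with 218 and 550.2 CPM, the Wnt pathway repressor *tcf7l1a*, with 37.6 and 92.6 CPM, and the zinc finger gene *sp8a*, with 25.7 and 116 CPM. A further zinc finger gene, *znf536*, had 2.24 and 38.6 CPM, 17.2-fold higher (11.9 to 25.8). The lower members were *zbtb16b*, with 122 and 55.5 CPM, 2.2-fold lower (1.98 to 2.45), *nr2f5*, *sp8b* and *foxp1b*, the last of which was lost on the scale of the median gene. In sox3-low cells 4 of these genes were higher and 10 lower. In elavl-high cells 14 were higher and 3 lower, with a median ratio of 1.38. The abundant chromatin protein genes *hmga1a*, with 4922 and 5915 CPM, and *hmgb2a*, with 10247 and 10256 CPM, stayed within 1.5-fold, as did all 8 genes of the heterochronic list, among them *lin28a*, with 39.1 and 49.0 CPM, and *igf2bp1*, with 569.6 and 608 CPM.

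Of 19 genes listed as Her and Hes repressors, some of them targets of Notch signalling in progenitors, 4 were higher and 2 lower. The list also holds the Id genes *id1* and *id3*. The gene *her4.1* had 2960.4 CPM at 16 hpf and 1263 CPM at 24 hpf, 2.34-fold lower (2.29 to 2.395), and *her2* 2129 and 1113 CPM, 1.91-fold lower (1.87 to 1.96). In contrast, *her12* was 1.73-fold higher (1.70 to 1.75), with 2424 and 4184 CPM, and *her4.4* 1.92-fold higher (1.84 to 2.004), with 298 and 573 CPM. The most abundant member, *her15.1*, had 7398 and 6162 CPM. The *her4* copies are near-identical and lie in a tandem cluster, so that reads of *her4.1*, *her4.2*, *her4.3* and *her4.4* cannot be divided with certainty. At 44 hpf *her4.1* had 4371 CPM and *her4.4* 4912 CPM. Of 11 ligands, receptors and modulators of Notch 4 were higher and 2 lower. Among the ligands, which neighbouring cells present, *dla* had 277 and 474 CPM, 1.71-fold higher (1.63 to 1.79), *dld* 53.8 and 105 CPM, 1.95-fold higher (1.77 to 2.16), and *dlb* 7.96 and 42.7 CPM, 5.37-fold higher (4.32 to 6.71). The ligand *jag2b* was 1.88-fold lower (1.64 to 2.16). The receptor *notch1a* was 1.57-fold higher (1.45 to 1.69), and the feedback inhibitor *nrarpa* 1.54-fold lower (1.47 to 1.61), with 455 and 296 CPM. This last call was lost on the scale of the median gene.

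Of the genes listed as proneural and early neurogenic, 13 of 17 were higher and 0 lower, with a median ratio of 1.90. Proneural genes commit progenitors to neuronal fates, but the list also holds *mycn* of the Myc family. This was its most abundant member and had the lowest ratio of the 17, 0.746. The proneural gene *neurog1* had 113 and 224 CPM, 1.98-fold higher (1.85 to 2.12). The later gene *neurod4* had 5.36 and 58.2 CPM, 10.9-fold higher (8.49 to 14.1), and *prdm8*, which encodes a transcriptional repressor, 1.23 and 48.0 CPM, 39.0-fold higher (24.0 to 67.6). Summed over the list, *mycn* included, single progenitors had a median of 14.3 UMIs per 10000 at 16 hpf and 20.0 at 24 hpf, and highest deciles of 27.5 and 46.0. In the progenitors without a UMI of 10 genes of neurogenesis, several of them on this list, 5 of the 12 genes that still had UMIs were higher and 0 lower, with a median ratio of 1.31. With 3000 UMIs for each cell, *neurog1* was found in 13.9% (12.1 to 15.9) and 22.0% (19.4 to 24.8) of progenitors and in 2.57% and 3.61% of sox3-low cells, whose median depth was 9822 and 10506 UMIs before drawing. Without drawing, 22.8% and 30.4% of progenitors had a UMI of *neurog1*. In sox3-low cells the median ratio of the 17 genes was 1.25, with 6 higher and 3 lower. In elavl-high cells, 65 of them at 16 hpf, it was 0.729, with 3 higher and 6 lower.

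Neuronal genes were higher in 5 of 7 cases, with a median ratio of 2.87, when *elavl3*, which the rule limits, is left out. By mean level *nova2* was the most abundant gene of the list. Neuronal tubulins were among the higher genes. They were *tuba1a* with 211 and 606 CPM, 2.87-fold higher (2.74 to 3.01), *tuba1c* with 177 and 598 CPM, 3.37-fold higher (3.21 to 3.54), and *tubb5* with 38.4 and 186 CPM, 4.85-fold higher (4.39 to 5.36). The neuronal reticulon *rtn1a* had 16.6 and 70.27 CPM. In elavl-high cells of 24 hpf these tubulins and *rtn1a* had 2508, 2147, 1440.1 and 799.8 CPM in the same order. Elavl-high cells were 2.22% of the library of 16 hpf and 12.0% of that of 24 hpf, and the part of their RNA in the levels of progenitors was not tested. The difference was also present in sox3-low cells for *tuba1c*, with 19.5 and 69.1 CPM, and *tubb5*, with 34.4 and 70.8 CPM.

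Genes associated with radial glia, the later form of neural progenitor, were higher in 10 of 28 cases and lower in 2, with a median ratio of 1.3. The summed level of the list was not higher, with 9221 CPM at 16 hpf and 8892 CPM at 24 hpf. In sox3-low cells 8 of the 28 genes were higher and 12 lower, with a median ratio of 0.790. In elavl-high cells 7 were higher and 13 lower, with a median ratio of 0.839. Besides *fabp7a* and *gpm6aa*, the genes higher in progenitors included the sodium pump subunit genes *atp1a1b*, with 6.01 and 35.6 CPM, 5.92-fold higher (4.62 to 7.65), and *atp1b4*, with 5.43 and 22.3 CPM, 4.11-fold higher (3.12 to 5.45), the matrix protein gene *sparc*, with 60.0 and 222 CPM, 3.69-fold higher (3.40 to 4.01), and the tetraspanin gene *cd82a*, with 85.8 and 214 CPM. Glutamine synthetase, *glulb*, was 1.64-fold higher (1.57 to 1.72), and the lower genes were *her4.1* and the midkine gene *mdkb*, the latter with 641 and 416 CPM and lost on the scale of the median gene. The uncharacterised *si:ch211-251b21.1* had no UMI at 16 hpf and 196 UMIs at 24 hpf, 23.9 CPM. It was 109.9-fold higher when 3 UMIs over all progenitors are taken for its level at 16 hpf. This value leaves out the counting error of its level at 24 hpf.

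At 44 hpf the levels of these genes were above those of 24 hpf, with 4679 CPM of *fabp7a*, 346 CPM of *atp1a1b*, 174 CPM of *atp1b4* and 354 CPM of *si:ch211-251b21.1*. The glial intermediate filament gene *gfap* was nearly level over the 3 stages, with 264, 294 and 248 CPM, and *slc1a3a*, a glutamate transporter of glia, had 48.6, 37.3 and 64.4 CPM. With 3000 UMIs drawn from each cell, *fabp7a* was found in 19.5% (17.4 to 21.7) and 51.8% (48.5 to 55.0) of progenitors and in 3.42% and 14.4% of sox3-low cells, and *gpm6aa* in 6.06% (4.83 to 7.49) and 41.1% (37.9 to 44.3) against 0.856% and 3.26%. Before drawing, 34.8% and 70.7% of progenitors had a UMI of *fabp7a* and 16.8% and 61.5% one of *gpm6aa*. The loci that the study assigns to *mir9*, a microRNA of neurogenesis, had low levels, with 0.579 and 5.48 CPM summed over *CR848047.1*, *CU929451.2* and *CU467822.1* and 2091 CPM at 44 hpf. At 24 hpf, *CU467822.1* had 4.87 CPM and at 16 hpf 0.507 CPM.

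**Figure D4:**
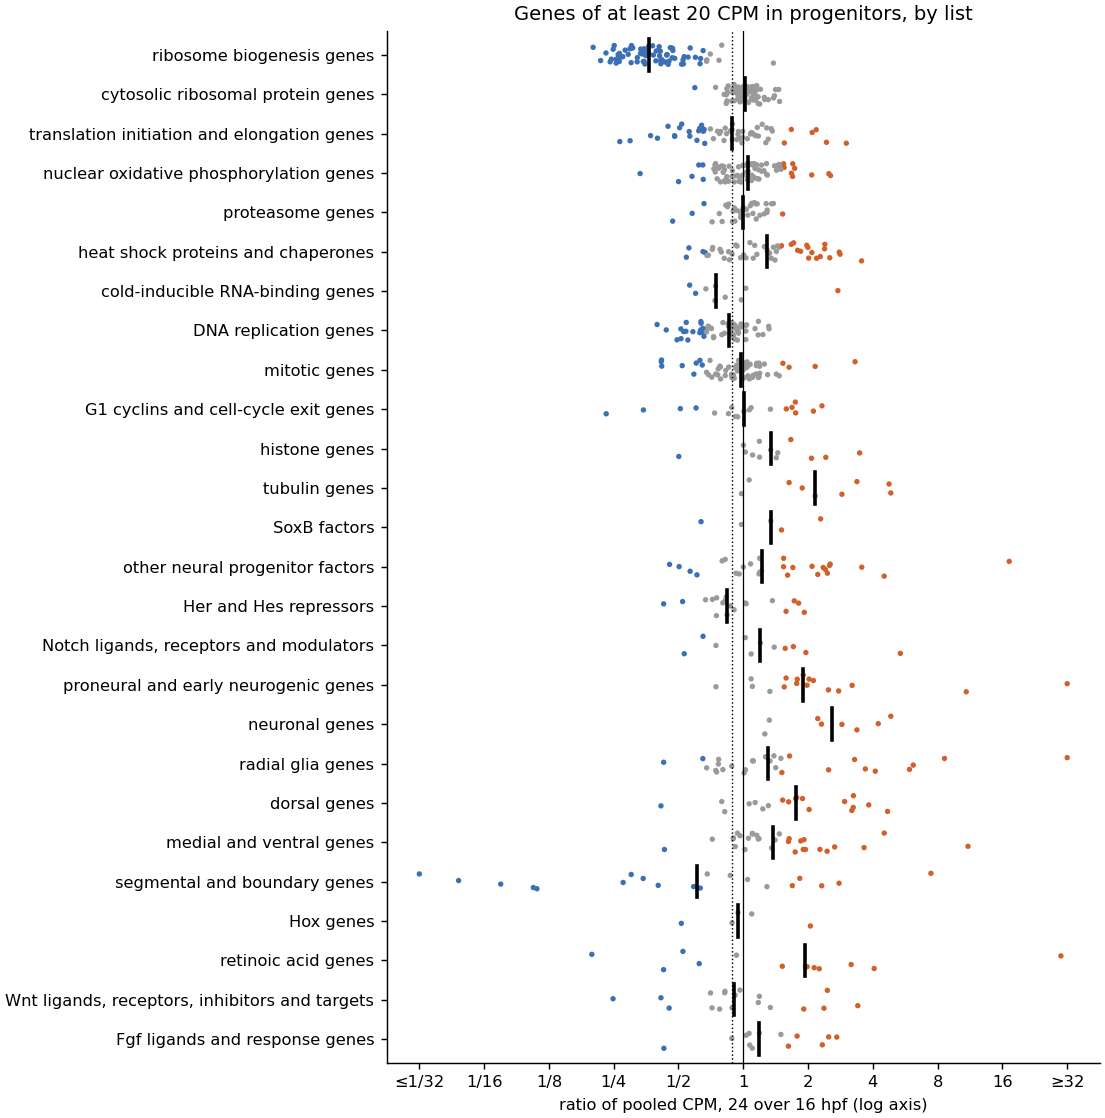
Ratio of pooled CPM at 24 over 16 hpf (x axis, log scale) of each gene with at least 20 CPM in 26 lists (y axis); orange and blue points are at least 1.5-fold higher and lower at 24 hpf, thick bars are list medians, and the dotted line is the median of all genes, 0.891. Nearly all ribosome biogenesis genes lie to the left, with a median of 0.363, while proneural and dorsal genes have medians of 1.90 and 1.75 and neuronal genes, among them *elavl3*, which the rule limits, of 2.59.

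Genes of dorsoventral domains, both transcription factors and signalling genes, were higher as a group. Of 19 dorsal genes 12 were higher and 1 lower, with a median ratio of 1.75. The zinc finger genes *casz1* and *zic4* had 19.4 and 90.8 CPM, 4.68-fold higher (4.07 to 5.41), and 30.0 and 115 CPM, 3.83-fold higher (3.41 to 4.31). The homeobox gene *msx3* had 158 and 503 CPM, 3.20-fold higher (3.03 to 3.37), and *pax7a* and *pax7b* were 3.24 and 2.96-fold higher. The lower gene was the ligand *wnt8b*, with 40.0 and 16.6 CPM, 2.41-fold lower (1.996 to 2.93). Of 30 medial and ventral genes 13 were higher and 1 lower. The homeobox genes *gsx1*, with 57.2 and 208 CPM, 3.64-fold higher (3.35 to 3.97), and *gsx2*, with 2.24 and 24.8 CPM, 11.1-fold higher (7.56 to 16.7), pattern intermediate progenitors. The ventral factor *dbx1a* was 2.27-fold higher (2.08 to 2.47) and *phox2bb*, a factor of branchial motor and other visceral neurons, 2.66-fold higher (2.36 to 3.002). The lower gene was *hhip*, which binds Hedgehog ligands, with 25.2 and 10.8 CPM, 2.32-fold lower (1.84 to 2.97).

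Progenitors were also divided by their *zic* genes. Cells with at least 4 UMIs of 7 *zic* genes per 10000, called zic-high, were 609 of the progenitors at 16 hpf, 44.4% (41.8 to 47.1), and 476 at 24 hpf, 51.3% (48.1 to 54.6), and cells with less than 1, called zic-low, were 535 and 347. The dorsal genes had a median ratio of 1.44 in zic-high cells, with 9 higher and 1 lower. In zic-low cells it was 1.25, with 8 higher and 8 lower. The dorsal list includes *zic* genes, on which these cells were chosen and which were kept in these medians and counts. The values are therefore set in part by that choice, and no conclusion on the other dorsal genes is drawn from them. Within the zic-high cells, *gsx1* was 3.93-fold and *msx3* 2.43-fold higher, and within the zic-low cells 1.86 and 8.99-fold. The gene *neurog1* had a ratio of 2.39 among zic-low cells and of 0.986 among zic-high cells, and the difference between these ratios was not tested. Of 3 floor plate genes with at least 20 CPM, *spon1b*, a secreted protein, had 3.33 and 30.7 CPM, with a ratio of 12.1 in zic-low and of 1.25 in zic-high cells, and the median of the 3 genes was 4.03 in all progenitors and 1.90 without cells from the ends of the dissection and the floor plate.

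The genes that mark segments and their boundaries differed in both directions, 5 of 20 being higher and 11 lower, with a median ratio of 0.609. With 3000 UMIs for each cell the median was 0.369, in the 1332 and 928 cells that met the rule after drawing. Genes of rhombomeres 5 and 6 were among the lower ones. Beside *mafba*, the lens-type genes *lim2.1* and *crygn2* had 56.0 and 1.46 CPM, 38.3-fold lower (21.8 to 74.5), and 20.5 and 0.974 CPM, 21.0-fold lower (10.5 to 49.2). The protease inhibitor *timp2b* had 57.5 and 6.09 CPM, 9.45-fold lower (7.10 to 12.8), and *egr2b*, the factor of rhombomeres 3 and 5, 304 and 122 CPM, 2.48-fold lower (2.32 to 2.66). The midbrain-hindbrain boundary gene *eng2b* had 21.2 and 1.58 CPM, 13.4-fold lower (7.71 to 25.5). In contrast, the ephrin *efna1b* was among the highest genes, the Eph receptor *epha2a* was 2.31-fold higher (2.16 to 2.48) and the homeobox gene *gbx1* 2.79-fold higher (2.59 to 3.004), while *epha4a*, a receptor of rhombomeres 3 and 5, had 83.6 and 87.6 CPM.

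The share of progenitors with a UMI of *mafba*, without *hoxd4a*, *eng2a* and *eng2b*, was 31.3% (28.8 to 33.8) at 16 hpf and 8.95% (7.19 to 10.98) at 24 hpf. With 3000 UMIs for each cell, *mafba* was found in 28.0% (25.6 to 30.5) and 5.50% (4.12 to 7.17) of all progenitors and in 17.8% and 3.44% of sox3-low cells, and *egr2b* in 27.7% (25.3 to 30.2) and 17.9% (15.5 to 20.5) of progenitors and in 6.42% and 1.55% of sox3-low cells. Before drawing, 37.0% and 9.82% of progenitors had a UMI of *mafba* and 34.9% and 25.1% one of *egr2b*. Cells with *eng2a* or *eng2b*, which lie at the rostral end of the dissection, were 83 at 16 hpf and 9 at 24 hpf. Cells with *hoxd4a*, a gene of the caudal hindbrain, were 284 and 226, 20.7% and 24.4% of progenitors. Fewer cells of a segment and less RNA per cell cannot be told apart in these pooled levels, nor can a different extent of the dissection. Among the *hoxd4a* cells alone, *mafba* was 9.36-fold lower and *egr2b* 2.15-fold lower. Of 5 *hox* genes with at least 20 CPM, *hoxb2a* was 2.05-fold higher (1.81 to 2.32) and *hoxa3a* 1.94-fold lower (1.73 to 2.19), with 87.4 and 45.1 CPM, and *hoxb3a*, *hoxa2b* and *hoxd4a* stayed within 1.5-fold.

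Genes of the retinoic acid pathway, which sets rostrocaudal identity in the hindbrain, were higher in 8 and lower in 4 of 13 cases. The degrading enzymes differed in direction, *cyp26c1* being 5.05-fold lower and *cyp26b1* 1.95-fold higher (1.81 to 2.09), with 104 and 202 CPM. The receptors *raraa* and *rarga* were 4.06-fold higher (3.51 to 4.70) and 3.17-fold higher (2.61 to 3.87), whereas *rarab* was 2.35-fold lower (1.93 to 2.87). The binding protein gene *crabp1b* had 1.303 and 39.0 CPM, 29.9-fold higher (18.6 to 51.1), and *crabp2a* 184 and 115 CPM, 1.60-fold lower (1.49 to 1.73), a call lost on the scale of the median gene. In elavl-high cells of 24 hpf *crabp1b* had 224 CPM, and in sox3-low cells 14.8 CPM.

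Among 18 genes of the Wnt pathway 4 were higher and 3 lower. The ligands *wnt11r* and *wnt8b* were lower, while *wnt7bb* was 3.41-fold higher (2.74 to 4.25), with 9.12 and 31.1 CPM, and the co-receptor *lrp5* 1.91-fold higher (1.63 to 2.24). The direct target *axin2* had 33.8 and 30.0 CPM. Of 13 genes listed under Fgf signalling 5 were higher and 1 was lower. The receptors *fgfr2* and *fgfr3* were 2.33-fold higher (2.07 to 2.62) and 2.49-fold higher (2.12 to 2.94), and the response genes *etv5b* and *spry2* had 42.6 and 45.7 CPM and 65.2 and 67.2 CPM. The lower gene was follistatin, *fsta*, which binds activins and is listed with the Fgf response genes, with 294 and 126 CPM, 2.34-fold lower (2.18 to 2.51), and had 6.14 CPM at 44 hpf.

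The claudin gene *cldn5a*, of tight junctions in the neuroepithelium, had 798 CPM at 16 hpf, 534 CPM at 24 hpf and 114 CPM at 44 hpf. Its ratio of 0.669 (0.646 to 0.693) stood next to the threshold of 1.5-fold. Of 15 genes of adhesion and tight junctions 2 were higher and 4 lower, 13.3% and 26.7%, near the background of 12.5% and 24.1%. The adhesion molecule *ncam1a* was 2.02-fold higher (1.81 to 2.26) and *pcdh19* 1.83-fold higher (1.70 to 1.98), whereas the epithelial genes *epcam*, with 56.4 and 21.9 CPM, and *cldnb*, with 46.8 and 22.8 CPM, were lower in progenitors and higher in sox3-low cells, which had 356 and 618 CPM of *epcam* and 241 and 828 CPM of *cldnb*. Of 18 genes of matrix and guidance, 5 were higher and 8 lower. The lower ones included the chemokine receptor *ackr3b*, with 113 and 68.7 CPM, which was lost on the scale of the median gene, and the basement membrane collagens *col4a5* and *col4a6*.

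Lists of general cell functions differed in part. Tubulin genes, some of which are also neuronal or mitotic genes above, were higher in 7 of 9 cases. Of 13 histone genes 4 were higher, among them the linker histone gene *h1f0*, with 102 and 353 CPM, 3.47-fold higher (3.26 to 3.70), and 1 was lower, *h2afy2*, which encodes a macroH2A, 1.99-fold lower (1.86 to 2.14). Of 8 genes of glycolysis 4 were higher, with *gapdhs* at 23.0 and 100.3 CPM, 4.36-fold higher (3.83 to 4.98). Nuclear genes of oxidative phosphorylation had a median ratio of 1.05, with 9 of 80 higher and 6 lower, and 15 and 3 on the scale of the median gene. The ATP synthase gene *atp5a1* was 2.54-fold higher (2.38 to 2.73), whereas *ndufab1a*, an acyl carrier protein of mitochondria, was 3.02-fold lower (2.77 to 3.29), with 230.2 and 76.4 CPM. Of 37 genes listed under the proteasome 1 was higher and 3 were lower, 1 of them *psmc3ip*, which encodes a recombination factor and no subunit.

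**Figure D5:**
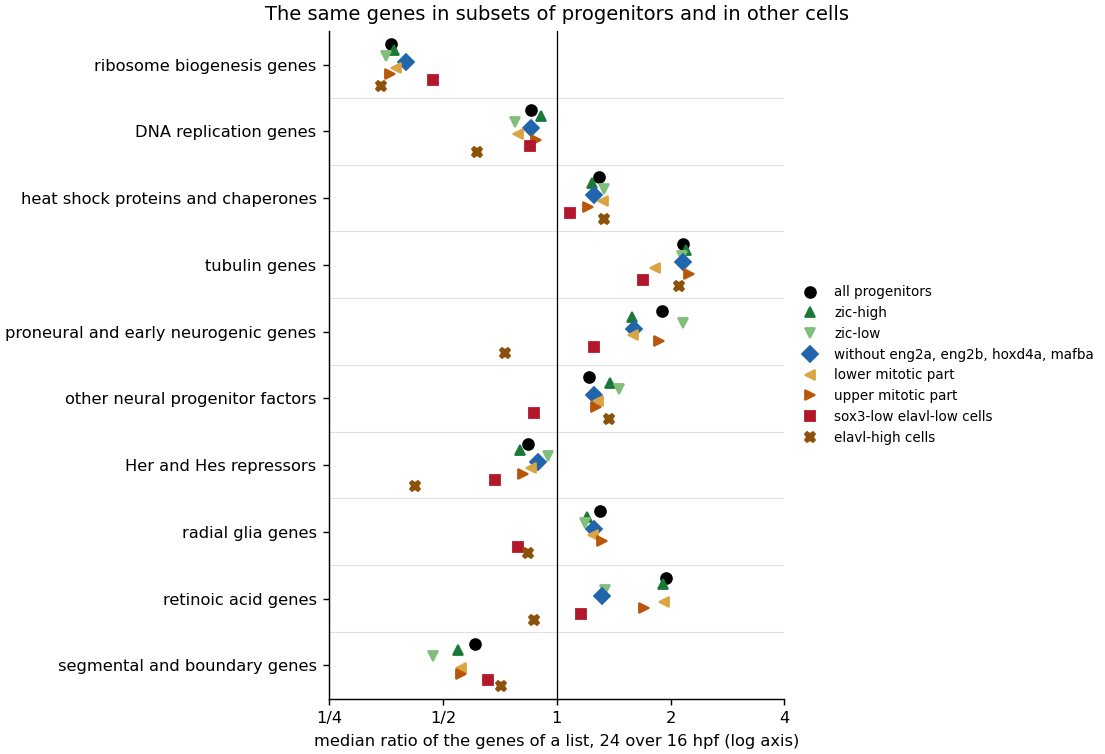
Median ratio at 24 over 16 hpf (x axis, log scale) of the genes of 10 lists (y axis) in all progenitors, in subsets of them and in other cells of the same libraries. Ribosome biogenesis genes lie between 0.343 and 0.470 in every set of cells shown, while the medians of proneural genes differ between zic-high cells, 1.58, and zic-low cells, 2.16; proneural genes of elavl-high cells rest on 65 cells at 16 hpf.

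The calls were also made in subsets of progenitors. Zic-high cells had 492 higher and 1049 lower genes of 4166, and zic-low cells 606 and 1029 of 4246. Of the 524 higher and 1016 lower genes, 428 and 902 were also called in zic-high cells and 457 and 866 in zic-low cells. None with at least 20 CPM in the subset was called in the opposite direction in either. Because the subsets are parts of the pooled cells, this overlap is partly fixed in advance. Progenitors were further divided at the median of their summed mitotic genes over both stages, 214 UMIs per 10000, and 46.6% (43.9 to 49.3) of them were in the upper part at 16 hpf and 55.0% (51.7 to 58.3) at 24 hpf. The median ratio of ribosome biogenesis genes was 0.376 in the lower and 0.363 in the upper part, and that of chaperones 1.33 and 1.21. Single genes varied more. Within zic-high cells *fabp7a* was 13.0-fold higher (11.8 to 14.5), with 65.4 and 852 CPM, and within zic-low cells 3.49-fold (3.21 to 3.79), with 160.5 and 560.0 CPM. These subsets come from the same libraries and are not replicates.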

How the data were processed

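The authors deposited UMI counts of 27282 genes for each cell of each library, which they had made with Cell Ranger (version not given in the sources used here) on GRCz10 with Ensembl 89 gene models. These counts are not normalised. A list of the aggregated libraries was not used here. Progenitors were chosen from these counts by the rule above, and UMIs were summed for each gene with Python 3.11.15, numpy 2.4.6, scipy 1.17.1, pandas 2.3.3 and matplotlib 3.10.9. The members, the 47 gene lists and the comparisons were chosen with earlier results of these data known. A gene was called from a ratio of at least 1.5 among genes of at least 20 CPM at the higher stage, without a test.

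Named genes are the 15 most different ones upward and the 15 most different ones downward that had at least 100 CPM at the higher and 10 UMIs at the lower stage, without mitochondrial, ribosomal protein and haemoglobin genes, then in each list up to 6 with the highest mean and up to 6 in each direction with the largest ratio, and genes that the paper names for progenitors. Other genes named (*axin2*, *cd82a*, *cygb1*, *cxcl14*, *dkc1*, *eng2a*, *fbl*, *gfap*, *hsp70l*) were chosen after their values were seen. Shares of cells used 3000 UMIs drawn without replacement from each cell (seed 1). For ratios with 3000 UMIs the rule was applied after drawing, which took 1332 and 928 cells, so the cells as well as the depth changed. No doublet caller was run. Alternatives changed the scale, the minimum, the fold, the rule or the cells, 17 in all. The ratios were tested on simulated counts.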

Additional observations from a re-analysis of the deposited data

Results flagged for a closer look

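Of 3955 genes with at least 20 CPM at the higher stage in both zic-high and zic-low progenitors, 3 were past 1.5-fold in opposite directions. None of these differences was tested, since each subset comes from 1 library for each stage. The globin gene *cygb1* had a ratio of 24 over 16 hpf of 1.70 (1.37 to 2.099) in zic-high cells, with 26.2 and 44.5 CPM, and of 0.372 (0.224 to 0.591) in zic-low cells, with 20.7 and 7.68 CPM. The ratio of *scube2*, which encodes a secreted protein that helps to release Hedgehog ligands, was 0.494 (0.406 to 0.600) in zic-high cells, with 65.1 and 32.2 CPM, and 1.56 (1.34 to 1.82) in zic-low cells, with 70.0 and 109 CPM. For the chemokine gene *cxcl14* it was 2.42 (1.95 to 2.99) in zic-high cells, with 22.7 and 54.7 CPM, and 0.438 (0.314 to 0.600) in zic-low cells, with 39.1 and 17.1 CPM. In sox3-low cells *cxcl14* had 282 and 484 CPM, *scube2* 18.4 and 13.3 CPM, and *cygb1* 30.5 and 30.9 CPM.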

How the results depend on the processing

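Over 17 alternatives no gene called in progenitors was called in the opposite direction where it still had at least 20 CPM. Below that level *zic2b*, with a ratio of 1.52, had 0.511 in zic-low cells, which were chosen on it. The genes *elavl3* and *elavl4* and those of neurogenesis have no ratio in the alternatives that require them to be at 0. The ratio of *neurog1* was 0.986 in cells with at least 4 UMIs of *zic* genes per 10000, and the cause was not tested. Apart from the scale of the median gene, the call was lost under at least 1 alternative for *ackr3b*, *atf3*, *cdkn1ca*, *cldnb*, *crabp2a*, *dla*, *dld*, *dnaja1*, *dnajc2*, *glulb*, *hspb1*, *jag2b*, *myca*, *mych*, *neurog1*, *nop56*, *notch1a*, *nrarpa*, *pax3a*, *pax6a*, *rpl37*, *sox19a*, *sox2*, *spon1b* and *zic4*. The lowest ratio of *zic4* was 1.25. With a minimum of 5 CPM, 1073 genes were higher and 2089 lower, with 50 CPM 278 and 506, and with a fold of 2 271 and 450. The other alternatives gave 492 to 742 higher and 694 to 1316 lower genes, the scale of the median gene giving 742 and 694. The number of progenitors was 783 and 520 at 16 and 24 hpf with at least 16 UMIs of *sox3* per 10000. It was 999 and 480 without any UMI of *elavl3* or *elavl4*. Without a UMI of 10 genes of neurogenesis, the alternative chosen after seeing the data, it was 656 and 250. No paired analysis was possible because each stage was 1 library. No library could be left out for the same reason. The depth of single progenitors, 10123 UMIs at 16 hpf and 7798 at 24 hpf in the median, limits statements on genes below 20 CPM.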

Other observations

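Of 28 measured yolk, maternal and early embryonic genes, 4 had at least 20 CPM in progenitors and 2 of these were at least 1.5-fold lower at 24 hpf. The list summed to 255 CPM at 16 hpf and 232 CPM at 24 hpf. Mitochondrially encoded genes summed to 9259.9 and 8023 CPM, with a median ratio of 0.819. Haemoglobin genes had 5.72 and 22.5 CPM in progenitors, where sox3-low cells had 63.2 and 2108 CPM. Genes of the roof plate summed to 392 and 329 CPM, and those of the floor plate to 82.2 and 175 CPM.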
